A study of Homo sapiens with 24 samples.

Results

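Chromatin accessibility after overexpression of lamin B2 was compared with that after overexpression of lamin A in HEK293, an established human embryonic kidney cell line. The comparison rests on 6 of the 24 libraries of the series, chosen by their sample titles: 3 ATAC-seq libraries of cells overexpressing LMNB2 and 3 of cells overexpressing LMNA. ATAC-seq uses a transposase that inserts sequencing adapters into open DNA, so that the count in a window rises with its accessibility. Both groups carried the label wild type for genotype, shared a batch number, and were made from 100000 collected cells per library. The other ATAC libraries, 3 of cells overexpressing eGFP (GFP below) and 3 overexpressing LMNB1, stayed outside the comparison. They helped to estimate the spread and to place the levels, and took part in the count filter and the scaling. The vector, its promoter and whether expression was transient are not given in the sources used here, nor is it said that replicates came from separate cultures. P-values therefore measure the spread between these libraries, which may be technical.

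Lamins are the filament proteins of the nuclear lamina, the meshwork under the inner nuclear membrane that tethers compact, gene-poor chromatin to the nuclear edge. LMNA encodes the A-type lamins A and C, which are found at the edge and also inside the nucleus, whereas the B-type lamins B1 and B2 stay bound to the membrane. The study's title names Pol III, that is RNA polymerase III. Its products are tRNAs, 5S ribosomal RNA, U6 small nuclear RNA and other short structured RNAs, made from small promoters that are usually free of nucleosomes. The question of the comparison is whether the windows on these genes, and on other annotated non-coding RNA features, differ in accessibility between a B-type and the A-type lamin.

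The table holds 175946 feature windows, each an annotated RNA feature with 125 bp on either side, and 163786 of them had enough counts to be tested. The LMNA libraries held 189182086 to 278598383 counts in these windows and the LMNB2 libraries 245216372 to 290158229. A count in overlapping windows enters each of them. Values below are CPM, counts scaled to a common library total, and log2 fold changes are LMNB2 minus LMNA, given with the standard error of edgeR's quasi-likelihood fit. MicroRNA loci that mark other tissues gave no call. The 7 windows of ubiquitous or HEK293-expressed microRNAs had a median of 0.183 CPM per kb and the 4 windows of blood microRNAs 0.291, so short windows of this kind did not separate cell types here.

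2 sets of sequences help to read the strongest signals. The first is MIR7108, a microRNA gene inside LMNB2 that has the largest log2 fold change of all tested windows. It lies on the minus strand of chromosome 19 at 2434914 to 2435000 (RefSeq, GRCh38.p14). Its mature products are given with the seed, bases 2 to 8, in capitals, and the hairpin with both mature products in capitals.
hsa-miR-7108-5p: gUGUGGCCggcaggcgggugg
hsa-miR-7108-3p: aCCCGCCCgucuccccacag
MIR7108 hairpin: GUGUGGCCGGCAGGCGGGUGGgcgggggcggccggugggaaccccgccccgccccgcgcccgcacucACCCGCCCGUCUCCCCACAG
The 87-base hairpin is 83.9% G and C. The second is an annotated LMNA promoter, chromosome 1 at 156082631 to 156082930 on the plus strand. It is shown because a window that holds it whole did not differ between the groups, while a window further inside the gene did. The window that differed overlaps another annotated LMNA promoter, at 156106466 to 156106765. CG dinucleotides are in capitals.
LMNA promoter: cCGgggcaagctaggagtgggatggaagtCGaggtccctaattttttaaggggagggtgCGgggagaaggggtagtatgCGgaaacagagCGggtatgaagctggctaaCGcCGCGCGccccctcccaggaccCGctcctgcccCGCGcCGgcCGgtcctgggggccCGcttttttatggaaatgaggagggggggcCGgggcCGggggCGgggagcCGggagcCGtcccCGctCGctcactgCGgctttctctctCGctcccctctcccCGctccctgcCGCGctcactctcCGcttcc
It holds 28 CG dinucleotides, and 73.8% of all promoters of the same length in the RefSeq table hold fewer.

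Only 5 of the 163786 windows were called at an adjusted p under 0.05 (edgeR quasi-likelihood test, Benjamini-Hochberg), 2 higher and 3 lower in LMNB2. That is 0.00305% of those tested, 0.00122% higher and 0.00183% lower. At an unadjusted p under 0.05 there were 11739 windows, or 7.17%, with 5834 higher (3.56%) and 5905 lower (3.61%). The 3 LMNB2 libraries lay entirely above or below the 3 LMNA libraries at 16.5% of windows, 8.04% above and 8.49% below. Of the 5 calls, 3 lay over the lamin genes themselves and 2 were overlapping windows of a long non-coding RNA, lnc-SLC12A7-1, on chromosome 5. DESeq2 called 113 windows. A fit of only the 6 libraries compared called 981, as described further on.

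Over LMNA, the window of lnc-SEMA4A-1 (chromosome 1, 156106508 to 156114988, inside the gene) had 4350, 5332 and 3743 CPM in the LMNA libraries. In the LMNB2 libraries it had 7.34, 5.50 and 7.36 CPM, and the GFP mean was 11.1 ± 2.16 (SD, n = 3). The groups were far apart, with a log2 fold change of -9.38 ± 0.43 (edgeR adjusted p = 0.00055).

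At the start of the same gene the groups overlapped. The window of lnc-RAB25-1 at 156082450 to 156083763, which contains the promoter printed above and also touches MEX3A, had 2.76, 2.92 and 2.44 CPM in LMNA libraries. The LMNB2 libraries had 2.78, 2.65 and 2.62 CPM there, a log2 fold change of -0.01 ± 0.10 (edgeR adjusted p = 0.99). In 8 flank windows of 500 bp within LMNA the 2 groups differed by less than 2-fold at all 8, including 1 that begins at 156115339, 350 bp past the end of the lnc-SEMA4A-1 window. Of the 6 tested feature windows over LMNA, 1 was called.

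Over LMNB2 the direction was the opposite. The window of lnc-TIMM13-1 (chromosome 19, 2414108 to 2612012), which spans LMNB2 together with TMPRSS9, TIMM13 and GADD45B, had 85.2, 71.1 and 81.3 CPM in LMNA libraries and 43107, 36030 and 45471 CPM in LMNB2 libraries. Its log2 fold change was 9.03 ± 0.42 (edgeR adjusted p = 0.00055). The overlapping lnc-GADD45B-1 window gave 8.87 ± 0.38 (adjusted p = 0.00053). These 2 are the only windows called higher.

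The smaller windows inside LMNB2 showed larger fold changes but were not called. A MIR7108 window (2434830 to 2435150) had 3.12, 0.102 and 2.10 CPM in LMNA libraries against 7461, 6230 and 7938 CPM in LMNB2 libraries. Its log2 fold change was 11.95 ± 1.5 and its edgeR adjusted p 0.352. LMNA replicate 2 held 18 counts in that window, below both other LMNA libraries. LMNB1 libraries, which share the estimate of the spread, had 2.02, 1.86 and 19.9 CPM there. Without LMNB1 replicate 3 the calls over the lamin genes rose from 3 to 9, and without LMNA replicate 2 they stayed at 3. At lnc-TIMM13-2 (2429321 to 2431979) the log2 fold change was 11.18 ± 1.03 with an adjusted p of 0.11. The fit of only the 6 libraries called these windows, at an adjusted p of 0.044 for MIR7108 and 0.010 for lnc-TIMM13-2, and DESeq2 did so too. Of 8 windows over LMNB2, 2 were called, and the 2 groups did not overlap at any of the 8.

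The signal over LMNB2 was not continuous. Of 9 flank windows of 500 bp within the gene, 5 were over 100-fold higher in LMNB2 libraries and the other 4 differed by less than 2-fold. The 5 high windows lay between 2430554 and 2434502, with a highest ratio of 3381. The window starting at 2435434, next to them, had 0.0779 CPM in LMNA and 0.0692 CPM in LMNB2 libraries. The form of the overexpressed lamin sequence is not given in the sources used here, and its part in these counts was not tested.

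Small RNA libraries of the same overexpression conditions had the same direction at the features over LMNB2. The small RNA feature of the first MIR7108 window (2434764 to 2435083) had a mean of 0.0230 CPM after LMNA and 18.6 CPM after LMNB2 overexpression, a log2 fold change of 9.02 (edgeR adjusted p = 1.39e-09). At NONHSAG024437.2, a long non-coding RNA interval over LMNB2, the small RNA means were 0.468 and 360 CPM (log2 fold change 9.55, edgeR adjusted p = 3.07e-12). Over LMNA, lnc-SEMA4A-1 had no tested small RNA value, and lnc-MEX3A-1 gave 0.79 (edgeR adjusted p = 0.36). Over LMNB1, the LMNB1-DT features starting at 126777052 and 126776099 were higher after LMNB2, by 2.42 and 1.85 (edgeR adjusted p = 2.01e-05 and 0.00148). Their means were low, 0.061 and 0.106 CPM after LMNA and 0.383 and 0.413 CPM after LMNB2. The window of the first lies within that of the second, so they are not independent results. The other LMNB1 features with a value had -0.28 to 0.16.

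LMNB1, which neither group overexpressed, gave no call in its 8 windows. The LMNB1-DT window at 126777052 to 126778380 of chromosome 5 had 13.9, 36.9 and 20.7 CPM in LMNA libraries and 14.2, 15.1 and 24.1 CPM in LMNB2 libraries. LMNA replicate 2 was the highest of these, the groups overlapped, and the log2 fold change was -0.42 ± 0.37 (edgeR adjusted p = 0.86). LMNB1 libraries held a mean of 10199 CPM there.

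**Figure D1:**
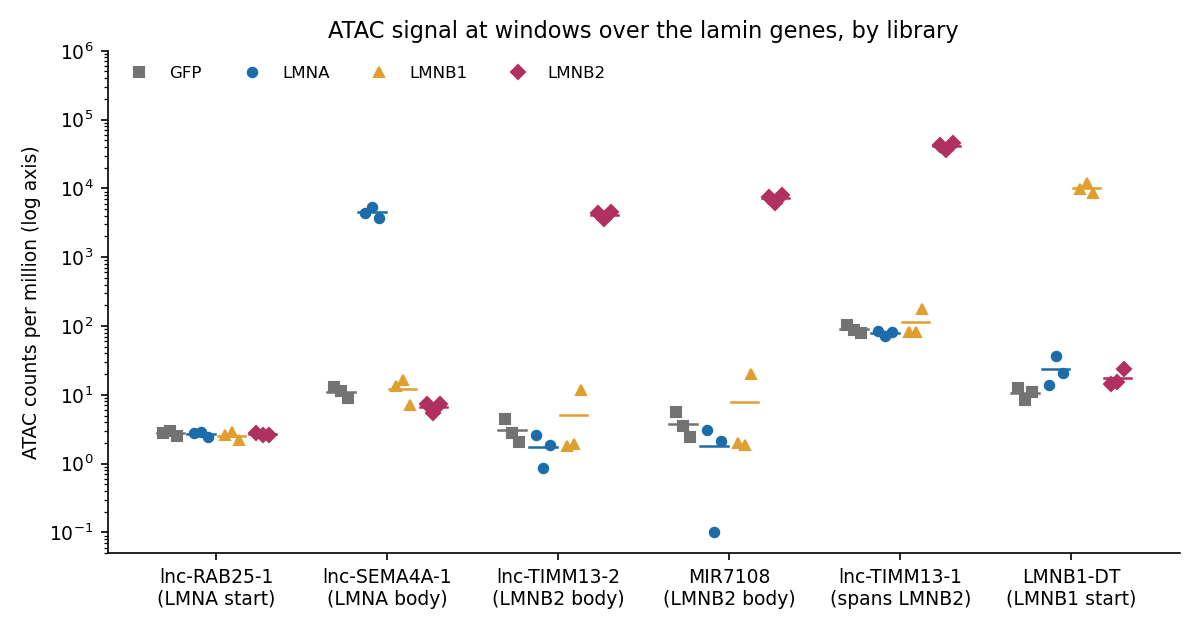
ATAC values in CPM (log axis) at 6 windows over the lamin genes; each point is 1 library, each short bar the mean of 3, and colour and shape give the overexpressed gene. LMNA libraries stand apart over the LMNA body and LMNB2 libraries over the LMNB2 body, while the window at the LMNA start shows 2.44 to 2.92 CPM in both groups.

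The remaining 2 calls fell on 1 segment of chromosome 5. The window of lnc-SLC12A7-1 at 1040593 to 1048462, in the space between NKD2 (a regulator of Wnt signalling) and SLC12A7 (a potassium-chloride cotransporter), had 2.59, 2.37 and 2.01 CPM in LMNA libraries. In LMNB2 libraries it had 0.738, 0.993 and 1.29 CPM. The groups did not overlap, and the log2 fold change was -1.20 ± 0.14 (edgeR adjusted p = 0.00019), the lowest adjusted p in the table. A longer window of the same RNA (1040844 to 1050458), which reaches into SLC12A7, fell by 0.95 on the log2 scale (adjusted p = 0.00053). LMNA libraries lay at the GFP level of 2.34 ± 0.252 CPM at the first window, and LMNB1 libraries, at 1.09 to 1.19 CPM, lay within the LMNB2 range.

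The flank windows of 500 bp trace the edges of this segment. A run of 37 of them, from 1041934 to 1048511 (6578 bp), had a log2 ratio of LMNB2 to LMNA below -0.5, with a median of -0.98 and a range of -1.34 to -0.56. The run was set from these ratios, which are a description, and its windows overlap. To the left, 22 windows had a median of 0.03, and the last of them ended at 1041715. To the right, 13 windows had a median of -0.12. Inside the run LMNB1 libraries had a median log2 ratio to GFP of -0.83, and LMNA libraries one of 0.04. The libraries did not overlap at 10 of the 37 windows, where each held few counts.

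**Figure D2:**
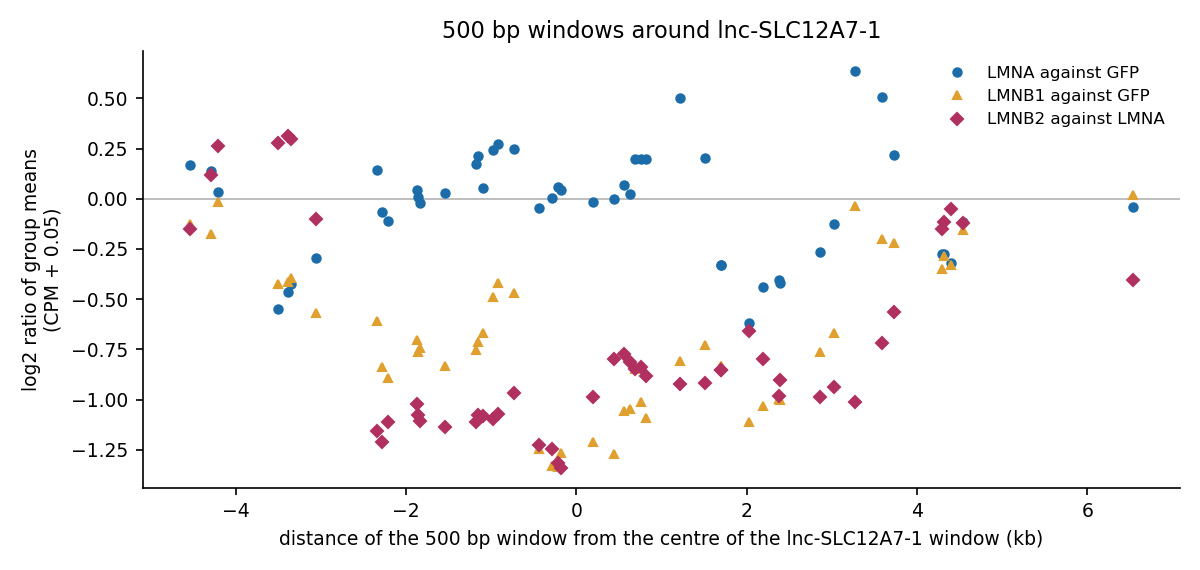
Log2 ratio of group means (CPM plus 0.05) in 500 bp flank windows, by distance in kb from the centre of the lnc-SLC12A7-1 window; diamonds are LMNB2 against LMNA, triangles LMNB1 against GFP and circles LMNA against GFP. LMNB2 against LMNA lies between -1.34 and -0.56 across the run of 37 windows, which was set by these ratios. It lies between -0.40 and 0.31 in the plotted windows on either side.

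Outside the lamin genes and this segment, the windows ranked highest by the naming rule changed by small amounts and were not called by the fit of 12 libraries. The 9 higher ones had log2 fold changes of 0.24 to 0.54 and adjusted p-values of 0.268 to 0.389 (edgeR). All 9 were long intervals, with a median length of 90902 bp, and 6 of them overlapped a protein-coding gene. In the fit of 6 libraries all 9 were called (0.614% of all windows were), as they were by DESeq2, which called 113 of 163786 windows. The 9 were chosen by low p with the groups apart, and those fits use the same LMNB2 and LMNA libraries. Their calls are therefore not independent results.

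AC079793.1, an interval of 276820 bp on chromosome 2 within ARHGAP15 (a GTPase-activating protein for Rac), had 12.9, 12.1 and 13.0 CPM in LMNA and 15.8, 16.0 and 14.7 CPM in LMNB2 libraries. Its log2 fold change was 0.29 ± 0.06. HDAC2-AS2, within HS3ST5 and beside the histone deacetylase gene HDAC2 on chromosome 6, had 1.23, 1.01 and 1.33 CPM in LMNA and 1.75, 1.80 and 1.65 CPM in LMNB2 libraries, a log2 fold change of 0.53 ± 0.12. On the same chromosome arm AL356234.2, between OLIG3 and TNFAIP3, gave 0.30 ± 0.06 and AL031772.1, over HECA and TXLNB, gave 0.27 ± 0.06. In each of these 4 windows every LMNB2 library lay above all 9 other ATAC libraries, GFP and LMNB1 included. The naming rule asked for LMNB2 libraries apart from the LMNA libraries and ranked by p, so this position is largely set by the choice and is only a description.

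Among the 9 lower windows outside the lamin genes, lnc-SLC12A7-1 was the only one called. At 6 of the 9 it was the LMNA libraries that lay outside the range of all 9 others, and at 2 the LMNB2 libraries, again as a description of windows chosen to be apart. LINC02578, on chromosome 9 between TLR4 and BRINP1, had 2.54, 2.51 and 2.68 CPM in LMNA and 1.72, 1.83 and 1.83 CPM in LMNB2 libraries (log2 fold change -0.52 ± 0.10, edgeR adjusted p = 0.268). The GFP mean there was 1.85 ± 0.148 CPM, close to LMNB2. LINC01287, between ACTR3B and DPP6 on chromosome 7, had 3.36, 3.36 and 3.30 against 2.50, 2.39 and 2.35 CPM and a log2 fold change of -0.46 ± 0.10. At lnc-C1QBP-2, over NUP88 (a nuclear pore protein) on chromosome 17, the LMNB2 libraries were the lowest of all 12, with 0.703, 0.647 and 0.768 CPM against 1.12, 1.13 and 1.06 CPM in LMNA (log2 fold change -0.63 ± 0.13).

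Wider flanks gave more counts per region and more calls. Of 43531 flanks of 50000 bp that do not overlap each other, 24 were called (0.0551%), 9 higher (0.0207%) and 15 lower (0.0345%) in LMNB2, and 4923 had an unadjusted p under 0.05 (11.3%). Leaving the flanks over LMNA and LMNB2 aside, 8 were higher and 14 lower. In all 8 higher flanks every LMNB2 library lay above the 9 other libraries. In 9 of the 14 lower flanks every LMNA library lay above the 9 others, and in none did the LMNB2 libraries lie below all others. The flanks were chosen by their difference between LMNB2 and LMNA, so these positions are largely set by the choice. They are only a description, and the same shares over all flanks were not computed. The numbers of called flanks were fragile. Without LMNA replicate 3 only 2 flanks were called. Without LMNA replicate 2, LMNB2 replicate 1 or LMNB2 replicate 3 it was 3, and without LMNB2 replicate 2 it was 9. Without LMNB1 replicate 3, which is outside the comparison, 160 were called, and 128, 103 and 57 without GFP replicate 3, GFP replicate 1 and LMNB1 replicate 1.

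6 of the 9 higher flanks lay on chromosome 6, which held 5.83% of the flanks tested, all of them on its long arm. The flank at 112088030 to 112138029, over LAMA4 (a laminin chain of basement membranes) and FAM229B, had 10.8, 10.7 and 11 CPM in LMNA and 14.4, 14.8 and 13.5 CPM in LMNB2 libraries. Its log2 fold change was 0.39 ± 0.08 (edgeR adjusted p = 0.0243). The flank at 116178837 to 116228836, over NT5DC1 and COL10A1 (a collagen of growth plate cartilage), gave 0.36 ± 0.07 (adjusted p = 0.0214). Over the 25.7 Mb between the outermost of these calls, 309 of 371 flanks had a higher LMNB2 value and the groups were apart in that direction at 41.2%, against 9.51% of all flanks. The span was chosen by the calls, so these shares only describe it. The libraries had medians of 0.09, 0.15 and 0.10 for LMNB2, and of 0.01, -0.01 and -0.00 for LMNA, on the log2 scale against the LMNA mean. Beyond this span, 1 flank of the same arm was called lower, at 164877314 to 164927313 (log2 fold change -0.48 ± 0.08, edgeR adjusted p = 0.00227). That was the lowest adjusted p of the flanks outside the lamin genes.

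4 of the 15 lower flanks lay on the X chromosome, which held 4.71% of the flanks tested. The flank at 82999737 to 83049736, before the neural transcription factor gene POU3F4, had 9.73, 9.87 and 11.3 CPM in LMNA and 6.37, 7.36 and 6.57 CPM in LMNB2 libraries (log2 fold change -0.61 ± 0.11, edgeR adjusted p = 0.0118). Of 2052 X flanks, 1789 were lower in LMNB2, with a median of -0.11 against -0.01 over all flanks. The LMNB2 libraries had X medians of -0.12, -0.08 and -0.15 and the LMNA libraries -0.01, -0.02 and 0.04. The GFP libraries alone ran from -0.19 to 0.03, which takes in all 3 LMNB2 libraries and 2 of the 3 LMNA libraries. Other chromosomes with lower medians were 19 (-0.08), 16 (-0.06), 17 (-0.05) and 22 (-0.05), and the LMNB2 libraries lay below the LMNA libraries at each. Chromosome 13 had the highest median, at 0.04.

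**Figure D3:**
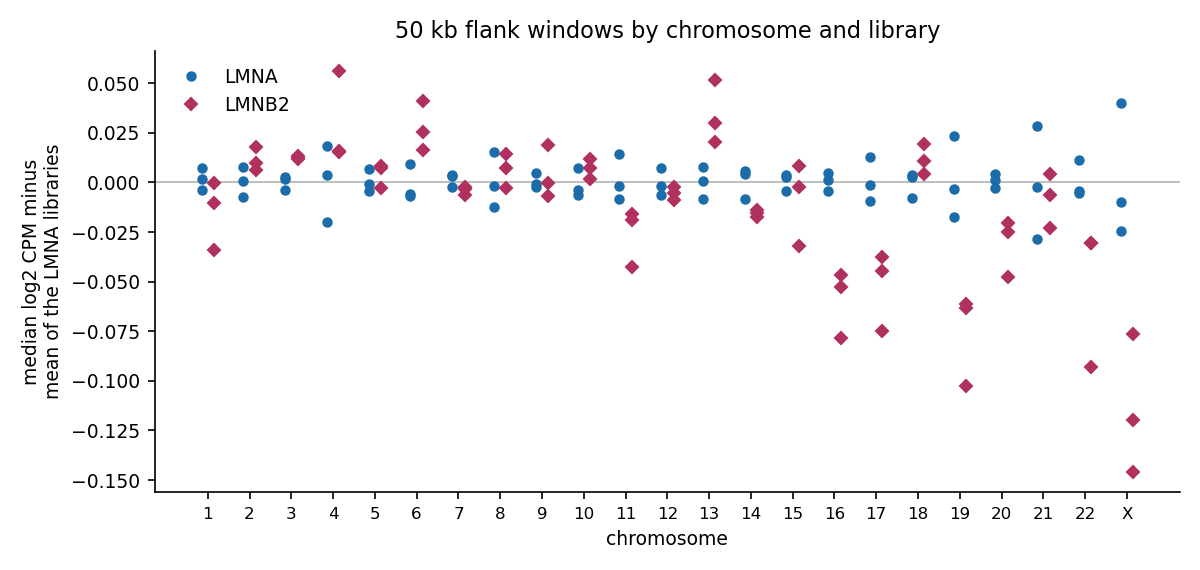
Median log2 CPM of 50 kb flanks on each chromosome, minus the mean of the LMNA libraries; each point is 1 library, with circles for LMNA and diamonds for LMNB2. LMNB2 libraries lie below all LMNA libraries on X, 7, 11, 14, 16, 17, 19, 20 and 22 and above them on 3, 6, 13 and 18.

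4 further lower flanks stood apart by their level. Their LMNA means were 578 to 937 CPM, whereas the other calls outside the lamin genes had 6.68 to 14.8 CPM. 3 of them lay on chromosomes 11 (over RNF141 and LYVE1), 13 and 17. Their log2 fold changes ran from -0.67 to -0.62. The 46 windows on mitochondrial DNA had nearly the same median, -0.64. Whether reads of the same origin were counted at these places was not tested.

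Mitochondrial DNA took a smaller part of the LMNB2 libraries. It held 39.4%, 44.1% and 39.8% of the window counts in LMNA libraries and 25.2%, 30.7% and 24.5% in LMNB2 libraries. The groups did not overlap, and the difference was -14.3 percentage points (exact two-sided permutation p = 0.1, the smallest that 3 against 3 libraries can give). GFP libraries held 44.8% ± 4.24 (SD, n = 3) and LMNB1 libraries 33.6% ± 0.685. Both means lay above LMNB2, with no allowance for the counts over the overexpressed lamin genes. All 46 mitochondrial windows were lower and apart in LMNB2 (8.49% of all windows were apart on the lower side), with a lowest edgeR adjusted p of 0.486. They lie on the same DNA and reflect the same library shares, so they do not count as 46 independent results. The shares also depend on the total counts. In LMNB2 replicate 1 the lnc-TIMM13-1 window over LMNB2 alone held 12084411 of 273754101 window counts. In LMNA replicate 1 lnc-SEMA4A-1 held 869602 of 193236612. Overlapping windows over LMNB2 count such reads again: in LMNB2 replicate 1, lnc-GADD45B-1 held 12087249 and NONHSAG024437.2 held 12061508. This lowers the mitochondrial share of the LMNB2 libraries. Shares without the lamin windows were not computed, so the size of the difference apart from them is not known. For the rest, fewer mitochondria in the preparation and less accessible mitochondrial DNA cannot be told apart.

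Across the feature windows, the most open ones had lower LMNB2 medians and the moderately closed ones higher medians. Windows were ranked by counts per kb and cut into 10 groups of equal size, from 1, the least open, to 10, the most open. In group 10, with a median of 1.82 CPM per kb, 16.2% of windows had a higher LMNB2 value and the median log2 fold change was -0.08. At an unadjusted p under 0.05, 1912 windows were lower, 11.7% against 3.61% of all windows, and 27 were higher (3.56% of all windows were). In groups 2 to 4, at 0.0437 to 0.0735 CPM per kb, the median was 0.06 and 61.5% to 63.6% of windows were higher. In group 4 the LMNB2 medians were 0.06, 0.08 and 0.05, above the LMNA medians of 0.01, -0.03 and 0.03, but within the GFP range of -0.03 to 0.13. LMNB2 also lay above LMNA in groups 5 and 6, whereas in groups 2 and 3 the lowest LMNB2 library lay below the highest LMNA library. The libraries of the 2 groups also overlapped in group 10: LMNB2 medians were -0.07, -0.13 and -0.04 and LMNA medians -0.01, 0.05 and -0.04. GFP libraries ran from -0.19 to 0.10 there.

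**Figure D4:**
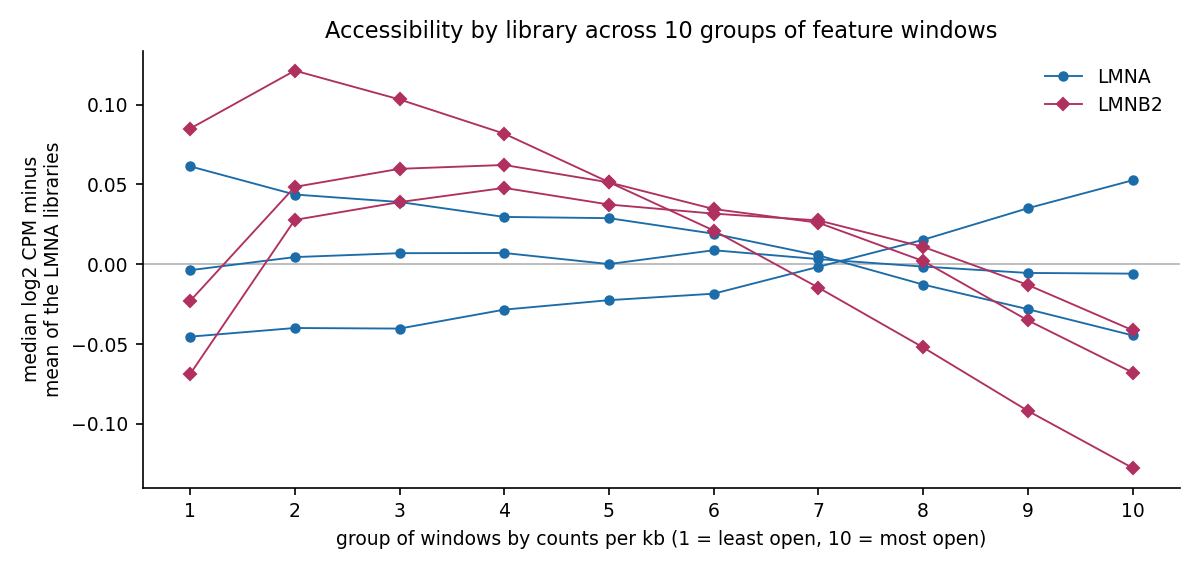
Median log2 CPM of each library, minus the mean of the LMNA libraries, in 10 groups of feature windows from least (1) to most open (10); lines join the values of 1 library. The LMNB2 lines lie above all LMNA lines in groups 4, 5 and 6, overlap 1 of them in groups 2 and 3, and end between -0.13 and -0.04 in group 10, where LMNA ends between -0.04 and 0.05.

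Most tRNA windows, 384 of those tested, are in that most open group, and they had lower LMNB2 values on balance. Of 479 tested tRNA windows (495 in the table), 421 had a lower and 58 a higher LMNB2 value, with a median log2 fold change of -0.14 against -0.00 over all windows. None was called (0.00305% of all windows were). At an unadjusted p under 0.05, 93 were lower, 19.4% against 3.61% of all windows, and 2 were higher. On the lower side 80 were apart, 16.7% against 8.49% of all windows. All 22 isotype groups had a median below 0, from -0.23 for aspartate to -0.04 for selenocysteine, which has 3 windows. Within that group, tRNA windows had a median of -0.14 and the other windows one of -0.08.

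The library levels overlapped the spread seen in other groups. The 3 LMNB2 libraries had median tRNA levels of -0.15, -0.14 and -0.14 against the LMNA mean, and the LMNA libraries 0.04, 0.09 and -0.13. LMNA replicate 3 thus lay next to the LMNB2 libraries. Replicate 3 was also low in GFP (-0.19), below every LMNB2 library, and in LMNB1 (-0.12), and replicates 1 and 2 of those groups lay between 0.02 and 0.04. Without LMNA replicate 3 the tRNA median was -0.20, and without LMNA replicate 2 it was -0.10.

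tRNA-Phe-GAA-1-4 (chromosome 12, 124927693 to 124928065), which carries phenylalanine to the ribosome, had the lowest p of the tRNA windows. It had 3.18, 2.99 and 2.62 CPM in LMNA and 2.08, 2.43 and 2.20 CPM in LMNB2 libraries, and the groups did not overlap. Its log2 fold change was -0.38 ± 0.09 (edgeR adjusted p = 0.486). A glutamate tRNA window named for tRNA-Glu-CTC-1-10 (chromosome 1, 161461872 to 161462240) had 11, 12.1 and 10.8 against 9.29, 9.47 and 9.21 CPM, a log2 fold change of -0.27 ± 0.07 with the same adjusted p. Copies of this tRNA share sequence, so their windows may share reads. The highest tRNA window, tRNA-Thr-AGT-1-1 on chromosome 19, had 19.2, 19.6 and 16.6 against 18.3, 14.3 and 19.6 CPM, and its groups overlapped (-0.09 ± 0.13).

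The 5S ribosomal RNA genes, which form a tandem array on chromosome 1, had a lower LMNB2 value at all 17 windows, with a median of -0.17 and log2 fold changes of -0.25 to -0.08. None was called, 7 were lower at an unadjusted p under 0.05 (3.61% of all windows were), and 7 were apart on the lower side (8.49% of all windows). An RNA5S8 copy at 228614600 to 228615018 had 4.69, 4.65 and 4.81 CPM in LMNA and 4.11, 3.91 and 4.32 CPM in LMNB2 libraries (log2 fold change -0.20 ± 0.08, edgeR adjusted p = 0.623). Repeated copies are nearly identical, so the 17 windows do not count as 17 independent results. When the counts of the 50000 bp flanks served as the scale, the 5S median was -0.03 and that of the SNAR genes -0.03.

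SNAR genes, a primate family of small RNAs in clusters on chromosome 19, were lower at 35 of 38 windows (median -0.13, none called). At an unadjusted p under 0.05, 7 were lower, 18.4% against 3.61% of all windows. On the lower side 7 were apart, 18.4% against 8.49% of all windows. Some of these windows lie within others, so the 38 do not count as independent results. SNAR-A13 had 4.96, 5.80 and 4.81 CPM in LMNA and 4.69, 4.47 and 4.2 CPM in LMNB2 libraries (-0.22 ± 0.09). U6 genes, which encode the catalytic core RNA of the spliceosome, were lower at 8 of 9 windows (median -0.17, none called). At an unadjusted p under 0.05, 3 were lower, 33.3% against 3.61% of all windows. The RNU6-1 windows on chromosomes 2, 3, 10 and X had LMNA means of only 0.037 to 0.083 CPM. Their standard errors were 0.46 to 0.55, so their directions are uncertain. The RNU6-9 window on chromosome 19 (1021372 to 1021777) had 6.47, 7.05 and 6.59 against 5.51, 5.39 and 5.84 CPM, which did not overlap, with a log2 fold change of -0.26 ± 0.08 and an edgeR adjusted p of 0.486.

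The other Pol III genes were single-copy genes or small families. Of 16 windows, 13 had a lower LMNB2 value, the median was -0.09, and none reached an unadjusted p under 0.05. On the lower side 2 were apart, 12.5% against 8.49% of all windows. The Y RNA genes, whose RNAs bind the Ro60 protein, had some of the lowest values of the list, with log2 fold changes of -0.28 ± 0.16 for RNY5, -0.26 ± 0.15 for RNY1 and -0.23 ± 0.14 for RNY3, against 0.20 ± 0.24 for RNY4. RNY1 had 1.21, 0.922 and 0.971 CPM in LMNA and 0.828, 0.909 and 0.844 CPM in LMNB2 libraries, narrowly apart (edgeR adjusted p = 0.742). RN7SK, whose RNA restrains transcription elongation, had 9.87, 9.64 and 8.23 CPM in LMNA and 9.55, 8.04 and 10.1 CPM in LMNB2 libraries, a log2 fold change of -0.00 ± 0.09. RMRP, the RNA of the RNase MRP complex that processes ribosomal RNA, gave -0.03 ± 0.09, and RPPH1, the RNA of the tRNA-trimming enzyme RNase P, -0.06 ± 0.08. The 7SL RNA gene RN7SL1, which encodes the scaffold of the signal recognition particle, gave 0.02 ± 0.09. VTRNA1-1, a vault RNA gene on chromosome 5, had 5.28, 5.56 and 5.24 against 4.98, 4.95 and 5.16 CPM, which were apart by a small margin (-0.09 ± 0.08, edgeR adjusted p = 0.85).

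Small nuclear RNA genes of RNA polymerase II had a lower LMNB2 value too, at 28 of 29 windows (median -0.09, none called). At an unadjusted p under 0.05, 3 were lower, 10.3% against 3.61% of all windows. The library medians of this class overlapped: LMNB2 libraries had -0.06, -0.24 and 0.02 and LMNA libraries 0.03, 0.06 and -0.08, so LMNB2 replicate 2 was the lowest and replicate 3 lay above LMNA replicate 3. Among snoRNA windows the directions were mixed: 97 of 202 C/D windows and 82 of 151 H/ACA windows were higher, with medians of -0.02 and 0.04. Of 1873 microRNA windows 896 were higher (median -0.02), and of 152094 lncRNA windows 75520 (median -0.00). Among known long non-coding RNAs, GAS5 had 14.6, 14.9 and 15.7 CPM in LMNA and 13.3, 13.6 and 12.9 CPM in LMNB2 libraries, which did not overlap (-0.19 ± 0.07, edgeR adjusted p = 0.58). MALAT1 gave -0.10 ± 0.06 and NEAT1 -0.03 ± 0.07, and the imprinted genes H19, MEG3 and KCNQ1OT1 lay between 0.03 and 0.05, with none called.

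**Figure D5:**
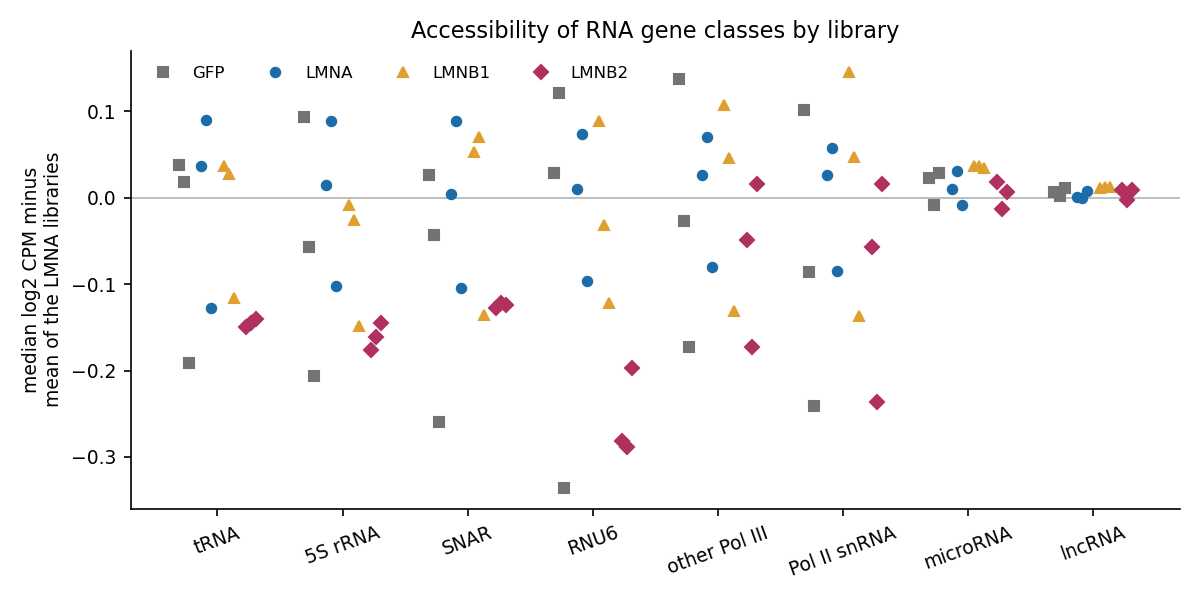
Median log2 CPM of each class of RNA gene windows in each library, minus the mean of the LMNA libraries; each point is 1 library and colour and shape give the group. The 3 LMNB2 points of the tRNA class lie at -0.15 to -0.14, beside the lowest LMNA point at -0.13 and below the other 2 LMNA points.

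Windows were also set against their own flanks, as the log2 ratio of count densities. Against the 50000 bp flanks the median ratio was -0.068 ± 0.0063 (SD, n = 3) in LMNA and -0.058 ± 0.0077 in LMNB2 libraries (exact two-sided permutation p = 0.1). The p-values were 0.3 with 5000 bp flanks and 0.7 with 500 bp flanks (exact permutation tests), where the direction was the opposite.

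The number of calls depended on which libraries entered the fit. With only the 6 libraries compared, 981 of 159733 windows were called by edgeR (0.614%), 261 higher (0.163%) and 720 lower (0.451%), at 327 loci of overlapping windows. The biological coefficient of variation was 0.0662 in that fit and 0.085 in the fit of all 12 libraries. The same fit of the 50000 bp flanks called 1388, or 3.19%. Outside the lamin genes 972 were called, with a median absolute log2 fold change of 0.27, and 18 of them reached 1. By chromosome, 122 of the 4548 X windows were called, all lower, and 112 of the 148 calls on chromosome 2 were higher, at 25 loci in all. On chromosome 6, 54 of 64 calls were higher. The least and the most open groups held 340 and 239 of the calls.

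Among Pol III genes that fit called 8 of 470 tRNA windows (1.70%), all lower and at 3 loci, 1 of 9 U6 windows (RNU6-9) and none of the 17 5S, 37 SNAR or 16 single-copy windows. 6 of the 8 tRNA windows were glutamate and aspartate tRNAs of the cluster on chromosome 1 near 161461872, and the others were tRNA-Phe-GAA-1-4 and tRNA-Ala-AGC-1-2. DESeq2 called 63 of the 981 windows, 1 tRNA window, and 28 of the 46 mitochondrial windows.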

How the data were processed

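The 6 ATAC-seq libraries of LMNB2 and LMNA overexpression were compared, 3 per group by sample title. The 6 GFP and LMNB1 libraries entered the fit to estimate the spread, and so also took part in the count filter and the TMM scaling. The authors deposited raw counts per window, and the submitters' processing notes name GRCh38. The aligner, counting tool, treatment of multi-mapping and duplicate reads, and any shift to the insertion site are not given in the sources used here. Gene copies and overlapping windows share reads.

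Feature windows reach 125 bp past the feature, and flanks (500, 5000 or 50000 bp) begin 350 bp outside. All 12 ATAC libraries were fitted in edgeR 4.0.16 (R 4.3.3; filterByExpr, TMM, robust quasi-likelihood), and p-values received Benjamini-Hochberg correction across the 163786 windows. Called means an adjusted p under 0.05. Fold changes use a prior count of 2. On simulated counts for LMNB2 against LMNA over 163786 windows, the fit recovered 41 of 50 windows changed 1.5-fold and 50 of 50 changed 2-fold, with 6 false calls. The changed windows were drawn only from those above a minimum mean count, and every window had the same spread, 0.085. These recoveries do not cover windows with fewer counts or a larger spread, such as MIR7108, which was not called. Alternatives were DESeq2 1.42.0, other scales and filters, leaving out each library, and the replicate number as a block. The 50000 bp flank fit was added after seeing the data. Small RNA counts were fitted likewise.

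Members, lists and the naming rule were chosen with earlier results of these data known. Named windows are those over the lamin genes, single-copy Pol III and U6 genes, the 3 highest and 3 lowest-p tRNA, 5S and SNAR windows, known long non-coding RNAs, microRNA cell markers, and up to 10 windows per direction. The last were ranked by change among calls and then by p, with groups apart, a mean log2 CPM at or above the median, and 1 window per overlapping group. Others were chosen after their values were seen. Nothing in the labels says what a shared replicate number means, and numbers were not used as pairs. The position of 1 called flank is not reported here.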

Additional observations from a re-analysis of the deposited data

Results flagged for a closer look

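3 values lay above every GFP library in LMNB1 libraries, which are outside the comparison of LMNB2 with LMNA, at windows over genes those cells did not overexpress. At lnc-SEMA4A-1, over LMNA, LMNB1 replicates 1 and 2 had 13.3 and 16.5 CPM, and the highest GFP library had 13.2 CPM, so the first exceeded it only narrowly. At the MIR7108 window over LMNB2 that starts at 2434830, LMNB1 replicate 3 had 19.9 CPM, while the GFP libraries had 2.40 to 5.54 CPM.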

How the results depend on the processing

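Beside the 5 windows called, total counts as the scale gave 88, the 6 compared libraries alone 981, DESeq2 113, 1 window per overlapping group 3 and the 50000 bp flanks as the scale 20, and leaving out 1 library gave 5 to 19 (19 without LMNA replicate 1). Over the lamin genes, where 3 were called, the counts were 5 with total counts, 9 with the 6 libraries, 9 with DESeq2, 7 with the flank scale and 3 to 9 without 1 library (9 without LMNB1 replicate 3, 3 without any other). The 24 flank calls became 5064 with total counts, 1388 with the 6 libraries and 2 to 160 without 1 library. With the replicate number as a block, 21 windows and 151 flanks were called. Deviations of same-numbered LMNA and LMNB2 libraries correlated at -0.020 to -0.00069, but those of GFP and LMNB1 replicates 3 at 0.195 and replicates 1 at 0.108, so some numbers outside the comparison moved together. With total counts the medians were 0.018 for all windows, 0.020 for lncRNA, 8.4e-05 for microRNA, and 0.057, 0.041 and 0.029 for accessibility groups 5, 6 and 7. With the flank scale they were -0.034 for 5S, -0.030 for SNAR, 0.045 for C/D, 0.093 for H/ACA and 0.015 for microRNA windows. With 1 window per overlapping group they were 0.106 for H/ACA, 0.147 for scaRNA and 0.0073 for microRNA. The scaRNA median was also 0.078 with no count filter, 0.036 with a mean of at least 10 counts and 0.055 with the 6 libraries. Without 1 library the medians ran from -0.283 to -0.154 for U6, -0.012 to 0.071 for H/ACA, -0.058 to 0.074 for scaRNA and -0.036 to 0.00053 for microRNA. The window-to-flank difference was -0.0024 with 5000 bp and -0.0076 with 500 bp flanks, and the mitochondrial difference -9.44 points with flanks included. The flank scale turned the direction at 4 windows over LMNA, to 8.52 and 9.86 (lnc-RAB25-1), 9.87 (lnc-MEX3A-1) and 0.43 (lnc-SEMA4A-1), where a flank over LMNA is itself called far lower in LMNB2. For the other changes the cause was not tested. The main comparisons kept their direction and side of the threshold, or their value within the replicate spread, in 310 other recomputations.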
